A study of Bos taurus with 6 samples.

Results

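The miR-21 and miR-22 arms are the 4 mature miRNAs bta-miR-21-5p, bta-miR-21-3p, bta-miR-22-5p and bta-miR-22-3p, chosen by name from the 1030 mature miRNAs listed in each library. Small RNA libraries came from the livers of 3 grass-fed Wye Angus steers, 21 months old, raised mainly on alfalfa, hay or pasture, and of 3 grain-fed Wye Angus steers, 14 months old, raised mainly on corn silage, shelled corn and soybean. Each library is from 1 animal, all 6 animals belong to the same closed herd, and both groups were sampled at market weight. Diet and age therefore separate the libraries in the same way and cannot be told apart. Each of the 4 arms was listed under a single precursor, so none of its reads was divided between precursor rows.

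A miRNA precursor is a hairpin whose stem yields a mature miRNA from each side, called the 5p and the 3p arm. Usually one of them is loaded into Argonaute and kept, and the opposite strand is degraded, so the ratio of the arms describes strand selection and turnover of the minor strand. miR-21, whose main arm is 5p, is widely expressed in the liver, in hepatocytes as well as in stellate and immune cells. It is known for its rise in liver injury, regeneration, fibrosis and fatty liver. miR-22, whose main arm is 3p, is abundant in hepatocytes and has been linked to lipid and energy metabolism and to growth control. In RefSeq's annotation of ARS-UCD2.0, a later assembly than the one used by the authors, the nearest annotated genes on either side of MIR21 were VMP1, a membrane protein gene of autophagy, and TUBD1, a tubulin gene. MIR22 overlapped TLCD2 and the miRNA gene MIR3600, and bta-miR-3600 had no count in any of the 6 libraries.

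The libraries held 3824592 to 6133960 miRNA counts in the grass-fed group and 464875 to 892929 in the grain-fed group. In the paper, the clean reads of the groups and the shares of them that mapped lay much closer together. A smaller share of the grain-fed reads thus ended as miRNA counts, and the reason was not tested. Levels are given as CPM, the usual depth-scaled count, after TMM scaling, which adjusts each library total for a few very abundant miRNAs. On that scale, 3 counts, the limit that a count of 0 allows, correspond to 0.632 to 0.787 CPM in grass-fed and 2.92 to 5.32 CPM in grain-fed libraries, for counting error only. bta-miR-122, the defining miRNA of hepatocytes, had the highest mean level of all miRNAs. Over the 456 miRNAs tested, the log2 fold change had a median of 0.13 with TMM and of -0.29 with total count as the only scaling, so a small log2 fold change has to be read against that shift.

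Neither main arm differed between the diets by more than the spread between animals, and nor did either minor arm. In the edgeR quasi-likelihood test over all miRNAs, 0 of the 4 arms passed FDR 0.1, and none had an unadjusted p below 0.05 in edgeR, DESeq2 or limma-voom. In the same test, 19.1% of the 456 tested miRNAs passed. The CPM ranges of the 2 groups overlapped for all 4 arms, while they did not overlap for 32.9% of all tested miRNAs. In bulk liver RNA, fewer cells that express a miRNA and less of it in each cell cannot be told apart.

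bta-miR-21-5p was among the most abundant miRNAs of the liver in every animal. It ranked between 5 and 7 in each of the 6 libraries and 7 by mean CPM, and it took 4.70% ± 1.64 (SD, n = 3) of the miRNA counts in grass-fed and 5.37% ± 0.683 (SD, n = 3) in grain-fed liver. In the order of replicates 1, 2 and 3, the grass-fed animals had levels of 68889, 46145 and 44817 CPM, and the grain-fed animals had 39907, 50842 and 48333 CPM. Grass-fed replicate 1 was the highest of the 6, and the other two grass-fed animals lay inside the grain-fed range. The mean was 53284 ± 13531 CPM for grass-fed and 46361 ± 5728 CPM for grain-fed animals (SD, n = 3 each). The log2 fold change of grass-fed over grain-fed was 0.20 (standard error 0.20, 95% interval -0.24 to 0.64, FDR = 0.603, edgeR quasi-likelihood test). Its direction rested on grass-fed replicate 1, without which it was -0.10, and on the scaling, with -0.19 for total count alone. The interval leaves room for a change of modest size in either direction.

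bta-miR-22-3p was the other abundant arm, at rank 9 to 13 in grass-fed and 8 to 10 in grain-fed libraries. Its share of the miRNA counts was 1.63% ± 0.275 under grass and 2.05% ± 0.316 under grain feeding (SD, n = 3 each). Grass-fed replicates 1, 2 and 3 had levels of 14061, 25426 and 18261 CPM, against 20882, 17667 and 14739 CPM for the grain-fed replicates in that order. The highest and the lowest animal were both grass-fed, so that the grain-fed range lay wholly within the grass-fed range. The mean was 19250 ± 5746 CPM for grass-fed and 17762 ± 3073 CPM for grain-fed animals (SD, n = 3 each). In edgeR the log2 fold change was 0.12, with a 95% interval of -0.39 to 0.62 (standard error 0.23, FDR = 0.819). It turned to -0.33 with total count alone, to -0.14 without grass-fed replicate 2 and to -0.05 without grain-fed replicate 3.

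bta-miR-22-5p, the minor arm of miR-22, was well above the detection limit. Replicates 1, 2 and 3 had 698, 947 and 570 counts under grass feeding and 166, 90 and 71 counts under grain feeding. After scaling, the grass-fed levels were 147, 223 and 150 CPM, and the grain-fed levels were 162, 127 and 126 CPM. Grass-fed replicate 2, the highest animal for the 3p arm, was also the highest for the 5p arm. The grass-fed mean was 173 ± 43.3 CPM and the grain-fed mean 138 ± 20.2 CPM (SD, n = 3 each). The log2 fold change of 0.31 (standard error 0.25, 95% interval -0.24 to 0.87) gave FDR = 0.487 in edgeR and was -0.13 with total count alone.

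bta-miR-21-3p, the minor arm of miR-21, was close to the limit of detection. Replicates 1, 2 and 3 had 15, 8 and 7 counts under grass feeding but only 2, 4 and 2 counts under grain feeding. These correspond to levels of 3.16, 1.89 and 1.84 CPM for the grass-fed and of 1.95, 5.66 and 3.55 CPM for the grain-fed animals. The values of grain-fed replicates 1 and 3 lie below the 3 counts that a count of 0 allows, and with so few counts the diets could not be distinguished. In edgeR the log2 fold change was -0.58, with a 95% interval of -1.93 to 0.78 (standard error 0.62, FDR = 0.643). It was the only arm of the 4 whose direction, lower in grass-fed liver, was the same under every scaling and every setting in which it was tested.

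**Figure D1:**
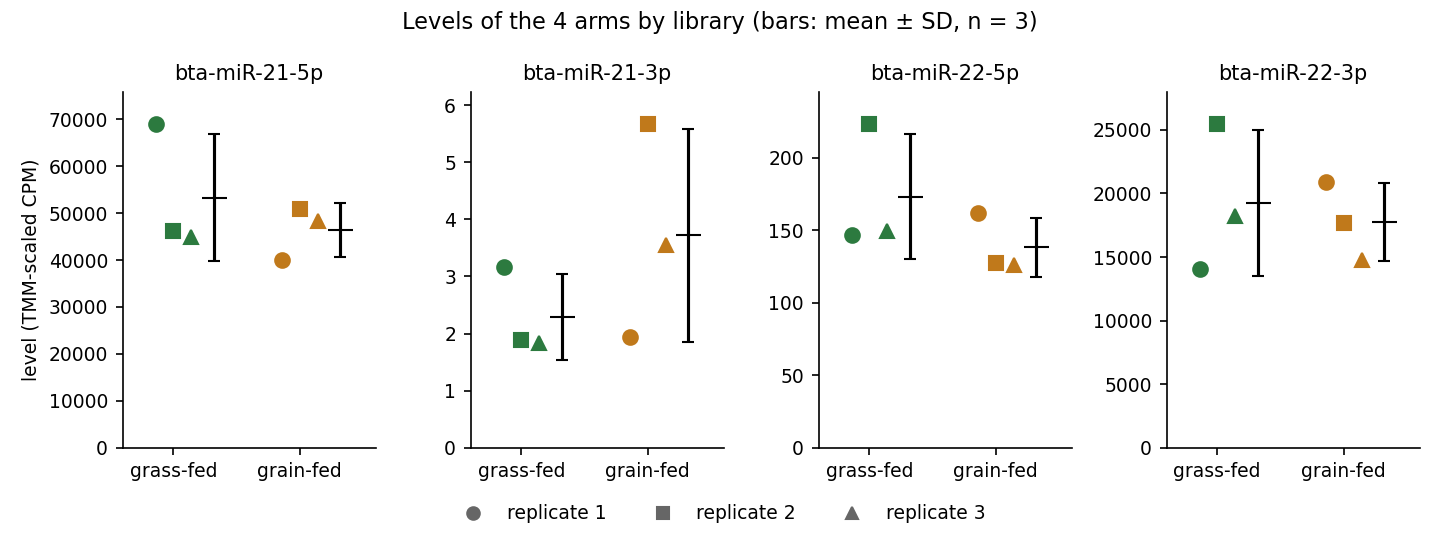
Level of each arm in TMM-scaled CPM (vertical axes, from 0) in the 3 grass-fed (green) and 3 grain-fed (orange) libraries, with symbols for replicates and the group mean ± SD (n = 3) beside them. The groups overlap in all 4 panels: grass-fed replicate 1 is highest for bta-miR-21-5p at 68889 CPM and grass-fed replicate 2 for both arms of miR-22.

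The spread between grass-fed animals was wider than that between grain-fed animals for 3 of the 4 arms. The SD of log2 CPM was 0.35 in grass-fed and 0.18 in grain-fed liver for bta-miR-21-5p, 0.43 and 0.25 for bta-miR-22-3p, and 0.34 and 0.20 for bta-miR-22-5p. For bta-miR-21-3p, with few counts, it was 0.33 and 0.62. The median SD of the 133 miRNAs with a mean of at least 100 CPM was 0.29 in grass-fed and 0.22 in grain-fed liver, so the same order held for abundant miRNAs in general. The difference in spread was not tested with 3 animals in each group.

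The diet difference of each arm across all settings shows how small changes of scaling move these values. For bta-miR-21-5p the log2 fold change lay between -0.19 and 0.39, and for bta-miR-22-3p between -0.33 and 0.28. For bta-miR-22-5p it lay between -0.13 and 0.48, with the lowest value again from total count alone and the highest from upper-quartile scaling. The smallest FDR reached by any arm in any of these settings was 0.168, for bta-miR-22-5p with upper-quartile scaling in edgeR.

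**Figure D2:**
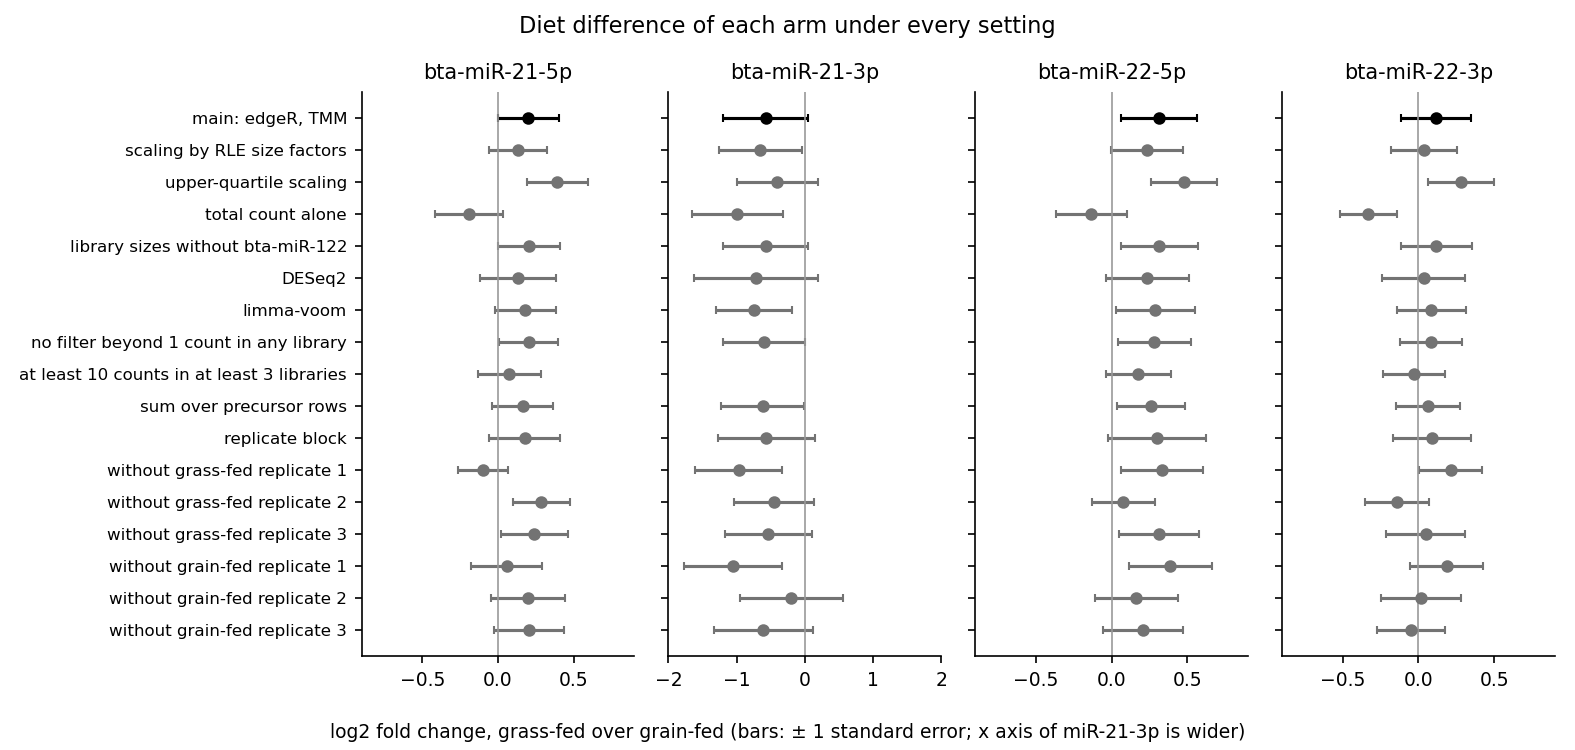
Log2 fold change of grass-fed over grain-fed liver (horizontal axes, points) with 1 standard error on either side (bars) for each arm, with 1 line for the main fit (black) and for each other scaling, tool, filter or left-out library (grey). Points for bta-miR-21-5p, bta-miR-22-5p and bta-miR-22-3p fall on both sides of 0, and those of bta-miR-21-3p, which has a wider axis, stay below 0.

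The ratio of the 2 arms of a hairpin is taken within a library and does not depend on how libraries are scaled. Both hairpins were strongly uneven in all 6 animals, and in opposite directions. For miR-21, grass-fed replicates 1, 2 and 3 had 21814, 24477 and 24394 reads of the 5p arm per read of the 3p arm, and the grain-fed replicates had 20486, 8978 and 13623. For miR-22 the main arm is the other one, and grass-fed replicates 1, 2 and 3 had 95.7, 114 and 122.1 reads of the 3p arm per read of the 5p arm, with 129, 139 and 117 for the grain-fed replicates. Thus the minor arm held 0.00409% to 0.0111% of the reads of miR-21 and 0.716% to 1.03% of those of miR-22.

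These ratios can be set against other hairpins of the same libraries. Of 82 precursors whose arms are named 5p and 3p, 36 had both arms above 2 counts in at least 2 libraries. On average over the 6 libraries the 5p arm was higher in 21 of them and the 3p arm in 15, and the median size of the log2 ratio was 2.76. The mean log2(5p/3p), with 0.5 added to each count, was 13.95 for miR-21, the most uneven of the 36, and -6.89 for miR-22, which ranked 6. Over the counts of all libraries, 0 of the 82 listed precursors were more uneven than miR-21 and 6 were more uneven than miR-22, with a minor arm under 3 counts set to 3. In 13 of the 82 neither arm had a count.

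**Figure D3:**
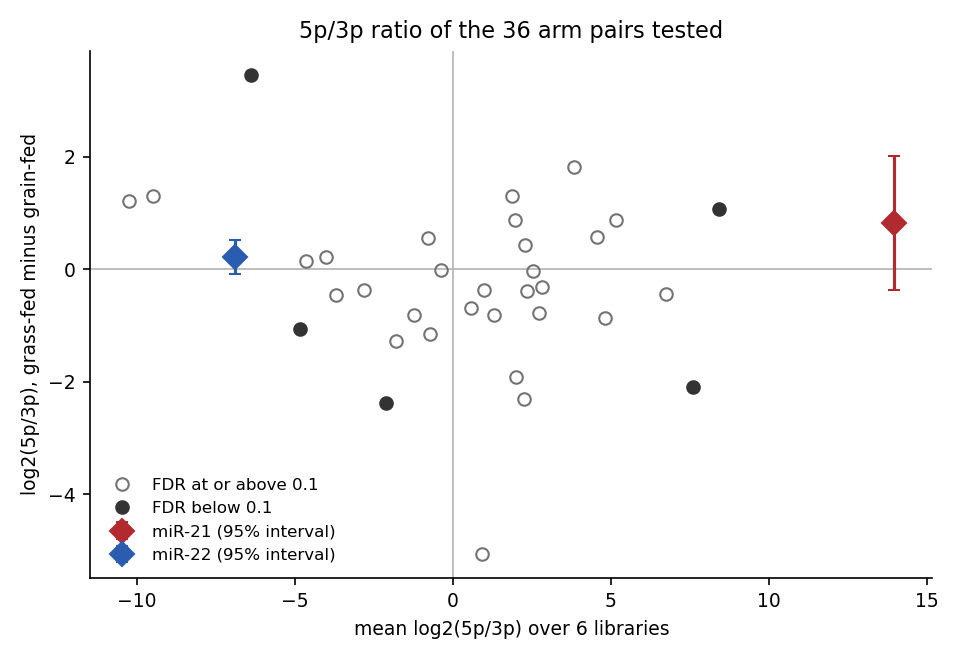
Mean log2(5p/3p) over the 6 libraries (horizontal axis) against the difference in log2(5p/3p), grass-fed minus grain-fed (vertical axis), for the 36 arm pairs tested, with filled points below FDR 0.1 and 95% intervals for miR-21 (red) and miR-22 (blue). miR-21 lies farthest to the right at 13.95, miR-22 lies at -6.89, and the intervals of both include a difference of 0.

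The arm ratio of miR-22 was measured closely and did not pass the test between the diets. The 3p arm outnumbered the 5p arm by 111 ± 13.5 to 1 in grass-fed and by 128 ± 10.8 to 1 in grain-fed liver (SD, n = 3 each). The lowest ratio was that of grass-fed replicate 1, and the grass-fed and grain-fed ranges overlapped. The log2(5p/3p) was higher by 0.22 in grass-fed liver (standard error 0.15, 95% interval -0.08 to 0.52, FDR = 0.272, edgeR with a term for each library, over the 36 pairs). In that test 13.9% of the pairs passed FDR 0.1. The exact two-sided permutation test over the 6 animals gave p = 0.2, where 3 against 3 animals cannot go below 0.1. On the summed counts of each diet, 244262 to 2215 and 42225 to 327, Fisher's exact test gave p = 0.00755, which compares these libraries by counting error alone and leaves out the spread between animals. Within the grass-fed group, the 95% counting interval of the ratio was 88.8 to 103 in replicate 1 and 107 to 121.6 in replicate 2.

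The arm ratio of miR-21 rested on very few reads of the 3p arm. All 3 grass-fed ratios were above all 3 grain-fed ratios, with means of 23562 ± 1514 and 14362 ± 5790 (SD, n = 3 each). The ranges did not overlap in 33.3% of the 36 pairs. The exact two-sided permutation test gave p = 0.1, the smallest that 3 against 3 animals allow. The log2 difference was 0.82 (standard error 0.59, 95% interval -0.38 to 2.02, FDR = 0.296, edgeR), and fell to 0.44 without grain-fed replicate 2. This fit, in which the p-value is limited by the counting error, was chosen after the values were seen. The newer form of the edgeR fit, run first and without that limit, gave FDR = 0.0263 with a standard error of 0.24. Limma gave FDR = 0.0525 with a pseudocount of 1 but FDR = 0.106 with a pseudocount of 0.5, so its call depended on the count added. The grass-fed group held 30 reads of the 3p arm with 693782 of the 5p arm, and the grain-fed group held 8 with 104127, where the grass-fed share would give 4.50 reads. By Fisher's exact test on these sums the grass-fed ratio was 1.78 times the grain-fed ratio (95% interval 0.704 to 3.97, p = 0.147), an interval from counting error alone that includes equal ratios. In grain-fed replicate 1, a single read fewer of the 3p arm would have put the ratio at 40972, above every grass-fed library.

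**Figure D4:**
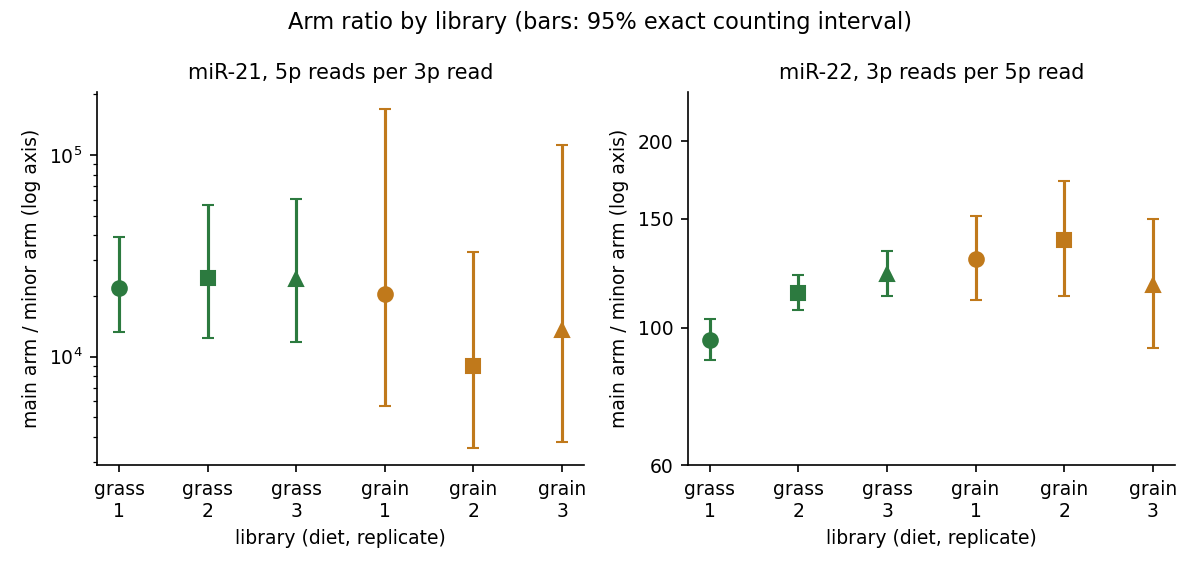
Reads of the main arm per read of the minor arm (logarithmic axes) for miR-21 (5p per 3p, left) and miR-22 (3p per 5p, right) in each library, with the 95% exact counting interval as bars. The miR-21 intervals of all 6 libraries overlap, and for miR-22 the interval of grass-fed replicate 1 lies below those of grass-fed replicates 2 and 3.

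The balance between the main arms of the 2 hairpins varied from animal to animal within each diet. For replicates 1, 2 and 3, the ratio of bta-miR-21-5p to bta-miR-22-3p was 4.90, 1.81 and 2.45 under grass feeding and 1.91, 2.88 and 3.28 under grain feeding. It differed 2.70-fold between grass-fed animals and 1.72-fold between grain-fed animals, and the ranges overlapped. The mean log2 ratio differed by 0.09 between the diets, with an exact two-sided permutation p = 1, and its direction turned without grass-fed replicate 1 (-0.31) or grain-fed replicate 1 (-0.14).

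Against bta-miR-122, both main arms had lower ratios in every grass-fed than in every grain-fed animal, in a design whose permutation test cannot reach 0.05. bta-miR-122, which acts in hepatocyte lipid and cholesterol metabolism, was itself higher there. Its log2 fold change in edgeR was 1.12, with FDR = 0.00420 and a standard error of 0.22, and it was 0.67 with total count as the only scaling. The median over the 456 tested miRNAs was 0.13 in the same fit. A miRNA near that median therefore also has a lower mean ratio to bta-miR-122 in grass-fed liver, so lower ratios are not particular to these arms. How many other miRNAs separate the groups in this ratio was not counted. For replicates 1, 2 and 3, the ratio of bta-miR-22-3p to bta-miR-122 was 0.0501, 0.0556 and 0.0614 under grass feeding and 0.130, 0.0909 and 0.120 under grain feeding. All grass-fed animals were below all grain-fed animals, with a log2 difference of -1.02. Leaving out single libraries gave values from -1.17 to -0.91. In the same order, the ratio of bta-miR-21-5p to bta-miR-122 was 0.246, 0.101 and 0.151 under grass feeding and 0.249, 0.262 and 0.393 under grain feeding. Here the groups nearly met, at 0.246 and 0.249, and the log2 difference was -0.93. It lay between -1.26 and -0.62 with single libraries left out, the latter without grass-fed replicate 2. The exact two-sided permutation p was 0.1 for each of these ratios, the smallest possible, and 0.167 after Benjamini-Hochberg adjustment over the 5 ratios of the report. The 4 hepatocyte marker miRNAs summed to 364084 to 545960 CPM in grass-fed and 191712 to 253928 CPM in grain-fed libraries, mostly bta-miR-122 itself, and their part in these ratios was not tested.

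**Figure D5:**
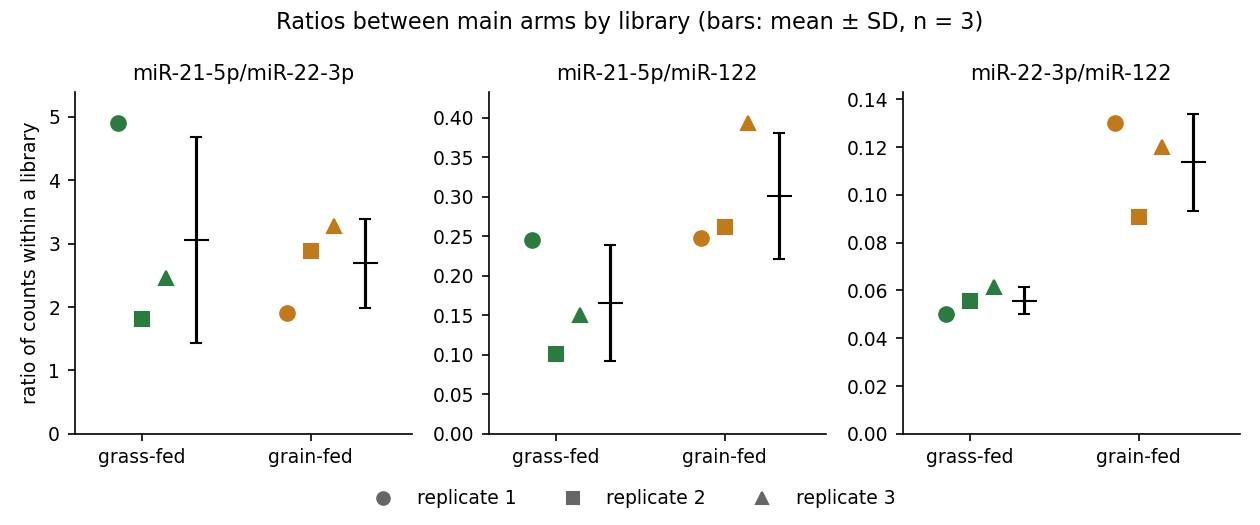
Ratios of counts within a library (vertical axes, from 0) for bta-miR-21-5p over bta-miR-22-3p, bta-miR-21-5p over bta-miR-122 and bta-miR-22-3p over bta-miR-122, by diet, with symbols for replicates and the mean ± SD (n = 3). The first ratio overlaps between the diets, the second nearly does, at 0.246 against 0.249, and the third is separate, with 0.0614 as the highest grass-fed and 0.0909 as the lowest grain-fed value.

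Some other miRNAs linked to the same processes passed the test. In a list of 17 miRNAs of liver injury and fibrosis, 6 were higher and 2 were lower in grass-fed liver at FDR 0.1 (edgeR over all tested miRNAs), with a median log2 fold change of 0.40 over the list. Over all tested miRNAs 9.43% were called higher and 9.65% lower, with a median of 0.13. The injury and lipid lists were chosen with earlier results of these data known, so their counts can exceed these shares through the choice. Among the 6 higher members of the injury list, bta-miR-199a-5p and bta-miR-199a-3p are arms of the same hairpin. The highest was bta-miR-221, a growth-promoting miRNA, at 1.18 on the log2 scale (FDR = 0.0495, edgeR), although its CPM ranges overlapped between the diets. Nearly as high was bta-miR-125b, at 1.17 (FDR = 0.00328, edgeR). Its ranges did not overlap, as for 32.9% of all tested miRNAs. The lower ones were bta-miR-146a and bta-miR-146b, which dampen inflammatory signalling (-0.67 and -0.76). With total count alone 1 member was higher and 3 were lower. The counts of higher and lower members fell to 2 and 1 without grain-fed replicate 2, to 3 and 1 without grain-fed replicate 1, and to 3 and 2 without grass-fed replicate 1, and were 6 and 3 with at least 10 counts in at least 3 libraries. In a list of 16 miRNAs of liver lipid metabolism 15 were tested, of which 4 were higher and 0 lower, with a median of 0.46. These were bta-miR-122, bta-miR-128, bta-miR-185 and bta-miR-370, with 2 list members past FDR 0.1 without grain-fed replicate 1. With upper-quartile scaling 7 list members were higher and 0 lower, with total count alone 3 were higher and 1 was lower, and with at least 10 counts in at least 3 libraries 4 were higher and 1 was lower. With total count alone the medians of the lists were -0.02 and 0.00051. Whether bta-miR-21-5p or bta-miR-22-3p differ from these lists was not tested.

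Marker miRNAs of the cell types of the liver were summed in the same libraries, and none of them was at 0 over all libraries. Their counts can be read beside the 9.43% of all tested miRNAs called higher and 9.65% called lower, or 9 higher and 65 lower of 456 with total count alone. The marker lists too were chosen with earlier results of these data known. Of the hepatocyte markers 2 of 4 were higher in grass-fed liver at FDR 0.1 in edgeR, or 1 without grain-fed replicate 1, without grain-fed replicate 2 or with total count alone. These were bta-miR-122 and bta-miR-192. Of the others, 1 had a log2 fold change of 0.41 and 1 of -0.43, the latter with means of 9811 CPM in grass-fed and 13210 CPM in grain-fed liver. Of the stellate and mesenchymal markers 3 of 6 were higher, with sums of 80073 to 116234 CPM in grass-fed and 74021 to 86764 CPM in grain-fed libraries. Most of each sum came from a marker that did not pass (FDR = 0.272, edgeR), with means of 91186 and 72423 CPM. Among the 3 higher ones, bta-miR-199a-5p and bta-miR-199a-3p are arms of the same hairpin. The count of higher markers was 1 without grass-fed replicate 1, grain-fed replicate 1 or grain-fed replicate 2, 1 with total count alone, and 5 with upper-quartile scaling. Of the leukocyte markers 0 of 5 passed in edgeR and limma-voom and 1 in DESeq2, while 3 had an unadjusted p below 0.05 in edgeR, and their sums were 743 to 993 CPM and 943 to 1132 CPM in grass-fed and grain-fed libraries. The endothelial markers (0 of 2 passed) summed to 11448 to 16151 and 9475 to 14334 CPM, and the erythroid markers (0 of 3 passed) to 419 to 643 and 465 to 665 CPM, with 0 in either list at an unadjusted p below 0.05 in edgeR and 0 calls in DESeq2 and limma-voom. Of 5 markers of biliary epithelium 1 was higher and 1 was lower, with sums of 599 to 880 and 442 to 704 CPM. With total count alone 2 leukocyte, 1 erythroid and 1 biliary marker were lower and 0 biliary markers were higher, and without grain-fed replicate 1 there was 1 lower leukocyte marker. With at least 10 counts in at least 3 libraries 2 leukocyte markers were lower. The marker lists share members with the injury and lipid lists, so their counts are not separate results. Among those past FDR 0.1, the lipid list also holds bta-miR-122. The injury list also holds bta-miR-192, bta-miR-199a-5p, bta-miR-199a-3p and bta-miR-200b. The part of any of these cells in the levels of the 4 arms was not tested.

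Among the 132 other miRNAs with a mean of at least 100 CPM, a few followed the main arms closely over the 6 libraries. Likeness was measured as the root mean square difference of log2 CPM, centred on each miRNA's own mean, with a median of 0.40 for bta-miR-21-5p and 0.42 for bta-miR-22-3p. The closest to bta-miR-21-5p were bta-miR-378 (0.10), which lies in a metabolic co-activator gene, bta-miR-126-3p (0.13), which marks endothelium, and bta-miR-151-3p (0.15). The closest to bta-miR-22-3p were bta-miR-186 (0.14), bta-let-7i (0.15), a member of the let-7 family, and bta-miR-505 (0.15). None of the 6 passed FDR 0.1 between the diets in edgeR, with log2 fold changes from -0.09 to 0.36. They were chosen for likeness to the main arms over the libraries of both diets. Small diet differences therefore follow from the choice and are no separate result. All values come from the same 6 libraries and share their depth and scaling.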

How the data were processed

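Liver small RNA of 18 to 30 nt was sequenced from 6 steers, 1 library each. Adapters, low-quality reads and reads outside a length range were discarded by the authors, who aligned what remained to ARS-UCD1.2. They counted the known miRNAs of miRBase with miRDeep2, whose version is not stated in the sources used here. As deposited, the counts are raw and whole, 1 for each of 1207 pairs of mature miRNA and precursor. The deposited CPM, relative to the sum of all pairs in the library, was not used. The submitters' processing notes name FastQC version 0.11.5 and Trimmomatic version 0.36, the latter used for mRNA reads per the methods.

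Where a mature miRNA had several precursor rows, its largest count was taken. Groups and replicate numbers came from the sample labels. miRNAs above 2 counts in at least 2 libraries were scaled by TMM and tested in edgeR (version 4.0.16, R version 4.3.3) by quasi-likelihood, with Benjamini-Hochberg adjustment and FDR 0.1. Standard errors of levels follow from the F statistic. Arm ratios were tested for all pairs in 1 edgeR fit with a term for each library and for arm by diet. The older form of that fit, whose p-value cannot fall below that of a Poisson test, was taken as main after the values were seen, because the newer form gave miR-21 a standard error below its counting error. Its standard errors are those that match the p-value. Ratios within a library were compared with exact permutation tests. DESeq2 version 1.42.0 and limma version 3.58.1 were alternatives, beside other scalings, filters, a replicate block and each library left out. Both edgeR fits were also run on simulated counts, and no outcome of that is used here or bears on this choice. Replicates differed by more than sampling noise. Intervals and limits cover counting error only.

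The 4 arms and the marker, injury and lipid lists were chosen with earlier results of these data known. The named miRNAs are the 4 arms, the 3 closest in pattern to each main arm among miRNAs with at least 100 CPM, bta-miR-122 and list members past FDR 0.1. miRNAs with a shared seed were also to be named, but sequences were not used here.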

Additional observations from a re-analysis of the deposited data

How the results depend on the processing

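No arm's level passed FDR 0.1 under any of the scalings, tools, filters or left-out libraries tried. With total count alone the log2 fold changes became -0.19 for bta-miR-21-5p, -0.13 for bta-miR-22-5p and -0.33 for bta-miR-22-3p, and with at least 10 counts in at least 3 libraries that of bta-miR-22-3p became -0.026. bta-miR-21-3p and the miR-21 arm pair could not be tested with minimums of 10 counts. With each library left out, the log2 fold change lay between -0.10 and 0.29 for bta-miR-21-5p, between -1.05 and -0.20 for bta-miR-21-3p, between 0.08 and 0.39 for bta-miR-22-5p and between -0.14 and 0.21 for bta-miR-22-3p. The negative values were those without grass-fed replicate 1 for bta-miR-21-5p and without grass-fed replicate 2 (-0.14) or grain-fed replicate 3 (-0.05) for bta-miR-22-3p. The log2 ratio of bta-miR-21-5p to bta-miR-22-3p ranged from -0.31 to 0.40, with -0.14 without grain-fed replicate 1.

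The arm ratio of miR-21 passed FDR 0.1 with the newer form of the edgeR fit (0.83, FDR = 0.0263), which was run first and replaced as the main fit after the values were seen, and with limma and a pseudocount of 1 (1.14, FDR = 0.0525), but not with limma and a pseudocount of 0.5 (FDR = 0.106). The standard error of 0.24 in the newer form compares with 0.59 in the form bounded by counting error. The difference of the mean log2 ratios was 0.79 with nothing added, and in limma 0.99 with a pseudocount of 0.5 and 1.14 with 1. An added count weighs more on the 8 grain-fed than on the 30 grass-fed reads of the 3p arm, so the difference grows with the pseudocount. What else bears on the limma result was not tested. With each library left out its log2 difference lay between 0.44 and 1.12, and FDR in edgeR between 0.274 and 0.723. That of miR-22 lay between 0.12 and 0.30.

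The replicate number gave no pairing. Deviations of same-numbered animals had correlations of -0.43, -0.60 and -0.14 over 133 miRNAs, and 0 of the 6 animals correlated best with its own number. With the replicate block the log2 fold changes were 0.18 for bta-miR-21-5p, -0.56 for bta-miR-21-3p, 0.30 for bta-miR-22-5p and 0.09 for bta-miR-22-3p, and the log2(5p/3p) differences were 0.81 for miR-21 and 0.22 for miR-22. It changed no call for these arms, and left 4 higher and 1 lower in the injury list, 1 higher among the stellate markers and 1 lower among the leukocyte markers.

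Among all miRNAs, 87 passed FDR 0.1, 43 higher and 44 lower, against 82 and 42 with upper-quartile scaling, 9 and 65 with total count alone, and 49 in all without grain-fed replicate 2. The paper, with edgeR and the same FDR limit, reported many more miRNAs lower than higher in grass-fed liver. Of the scalings tried here, only total count alone gave so uneven a split. The paper does not state its scaling. Of the 36 arm pairs 5 passed, against 8 and 9 with limma and pseudocounts of 0.5 and 1, 3 without grass-fed replicate 1 or 2, and 9 without grass-fed replicate 3. The low number of miRNA counts limits bta-miR-21-3p most, with 8 grain-fed counts in all.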
